A study of Mus musculus with 4 samples.

Results

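*Clec1a* and 4 genes of the group 14 lectin system, *Clec14a*, *Cd93*, *Thbd* and *Mmrn2*, were followed in RNA-seq data of brain endothelial cells (ECs) from wild-type and *Foxq1* conditional knockout (cKO) mouse embryos. The genes were picked by symbol, with their levels in the 2 genotypes already known, and all 5 are among the 12693 genes in the table. Their differences between the genotypes are therefore given as a description and carry no test. The comparison asks how the transcriptome of these cells differs when the forkhead factor FOXQ1 is missing. There were 2 samples per genotype, all at embryonic day 18 and of strain C57BL/6. The labels call the tissue brain, the controls WT and the mutants FOXQ1fl/fl;Tie2-Cre. The methods of the study add that cells from the cerebral cortex were sorted by CD31 and that the controls were littermates without Cre, so the controls may carry floxed alleles too. Tie2-Cre is active in ECs and also in many blood lineage cells. How many embryos went into a sample was not given in the sources used here, so the spread between samples may be partly technical.

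C-type lectins share a folded domain named after lectins that bind sugars in the presence of calcium, although many members of the superfamily bind proteins instead. Group 14 consists of thrombomodulin (*Thbd*), CD93, CLEC14A and endosialin (*Cd248*), transmembrane proteins with an N-terminal lectin-like domain followed by EGF-like repeats. CD93 and CLEC14A are found on vascular ECs, where both bind the matrix glycoprotein multimerin 2 (*Mmrn2*) and act in sprouting angiogenesis. Thrombomodulin binds thrombin and turns it from a clotting enzyme into an activator of protein C. CLEC1A belongs to another branch, the NK-receptor-like lectins encoded in a gene cluster on chromosome 6, and serves as a receptor for fungal melanin on ECs and myeloid cells.

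In the GRCm38 annotation of GENCODE, *Clec1a* (ENSMUSG00000033082) occupies positions 129424772 to 129452000 of chromosome 6, minus strand. It has 6 exonic blocks and 4 annotated transcripts, the longest coding one with 269 codons. *Clec14a* (ENSMUSG00000045930; chromosome 12, 58264720 to 58269290, minus strand) and *Thbd* (ENSMUSG00000074743; chromosome 2, 148404466 to 148408188, minus strand) each consist of 1 exon, with 459 and 577 codons. *Cd93* (ENSMUSG00000027435; chromosome 2, 148436640 to 148443563, minus strand) has 2 exons and 644 codons. *Cd93* is the next gene to *Thbd*, 28451 bp away and on the same strand. *Mmrn2* (ENSMUSG00000041445; chromosome 14, 34375465 to 34404287, plus strand) has 7 exonic blocks, and its longer transcript has 943 codons. None of the 5 genes overlaps another annotated gene. The submitters' processing notes list mm9, so these positions describe the genes and not the alignment of the reads.

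Of the 5 genes, the RefSeq promoter table used here held *Clec14a*. Its upstream sequence is shown because FOXQ1 is a forkhead factor and this stretch holds a forkhead core. The 240 bases (GRCm38.p6, chr12:58269269-58269508, minus strand, written 5′ to 3′ along the gene) are the upstream part of a 250-base window and stop 10 bases short of the RefSeq start, and capitals mark the forkhead core. The last 22 of them, the core included, lie inside the *Clec14a* transcript as GENCODE annotates it.
Clec14a: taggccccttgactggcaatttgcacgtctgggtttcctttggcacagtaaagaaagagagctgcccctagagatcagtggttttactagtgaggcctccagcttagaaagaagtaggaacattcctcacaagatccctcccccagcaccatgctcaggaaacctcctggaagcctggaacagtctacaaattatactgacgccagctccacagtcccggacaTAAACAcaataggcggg
The core was searched as TGTTTA on both strands of the 250 bases before the start, and 12.03% of 32851 promoters held it in a window of that length, so this is a common string. The ETS core GGAA occurred 6 times, and 93.4% of promoters held at least 1. For FOXQ1 itself, the study reports a preference for another string, GTTTC, at its sites near the starts of *Adck1* and *Hap1*. GTTTC and its reverse complement GAAAC also occur in the bases shown. They are not capitalised, and their share over all promoters was not counted. The study also mapped FOXQ1 binding by CUT&Tag, which was not used here. A match of letters is not a bound site, and *Clec14a* itself was nearly level between the genotypes, as shown next.

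The listed genes held between 15827166 and 21466436 reads per sample. Values are normalized counts, that is, reads on a gene divided by 1 size factor per sample. *Foxq1* had 353 and 297 normalized counts in wild-type 1 and 2, against 5.44 and 32.6 in *Foxq1* cKO 1 and 2, in accord with the labels. *Foxq1* overlaps *A530084C06Rik* on the opposite strand. All 14 markers of ECs and all 8 of brain ECs on the lists were tabulated. The summed endothelial markers were 217886 and 201416 in wild-type samples and lower, at 179436 and 196556, in *Foxq1* cKO samples. Of these 14 markers, 7 lay below in both *Foxq1* cKO samples, 2 (*Cdh5* and *Ramp2*) lay above and 5 overlapped, with a median log2 fold change of -0.15. The summed brain EC markers overlapped between the genotypes, at 425328 and 386765 against 380047 and 407816. Of the 8, 2 lay above, 3 lay below and 3 overlapped, with a median of -0.066. Over the 12472 genes with a mean of at least 10 normalized counts, 2239 lay above and 2249 below, together 36.0%. Pericyte and mural transcripts were also abundant, with 6 of 9 markers tabulated, *Acta2*, *Myh11* and *Tagln* not listed, and sums from 127924 to 136961 that overlapped between the genotypes. In bulk samples, fewer cells of a type and less RNA per cell cannot be told apart.

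*Clec1a* was the member that stood apart between the genotypes. Its normalized counts were 1223 and 844 in wild-type against 3193 and 2659 in *Foxq1* cKO samples, resting on 1451, 847, 2933 and 2614 reads. Both *Foxq1* cKO samples lay above both wild-type samples, and the closest pair across genotypes still differed 2.17-fold. The means were 1034 ± 267 (SD, n = 2) and 2926 ± 377 (SD, n = 2), a ratio of 2.83. The log2 fold change was 1.52 with a standard error of 0.277, and 7.97% of the 12472 genes with a mean of at least 10 normalized counts had a larger one in either direction.

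*Thbd* was the other member without overlap, by a smaller margin. Its normalized counts were 2559.9 and 2644 in wild-type against 2934 and 3465 in *Foxq1* cKO samples. The closest pair across genotypes differed 1.11-fold, the means differed 1.23-fold, and the log2 fold change was 0.29 (standard error 0.193). In all, the genotypes did not overlap in 2 of the 5 members, both with the *Foxq1* cKO samples above, beside 36.0% of all 12472 genes, of which 2239 lay above and 2249 below. Since the members were chosen with these values known, nothing is read from these shares.

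The CLEC14A, CD93 and multimerin 2 transcripts were nearly level. *Clec14a* had 3365 and 2529 normalized counts in wild-type against 2805 and 3044 in *Foxq1* cKO samples, so the wild-type samples enclosed the *Foxq1* cKO samples. Its log2 fold change was 0.0025 (standard error 0.217). *Cd93*, the most abundant member, had 14073 and 14206 normalized counts in wild-type against 12865 and 15604 in *Foxq1* cKO samples, here with the *Foxq1* cKO samples on either side. The log2 fold change was 0.0029 (standard error 0.139). *Mmrn2* had 7659 and 8083 against 7305 and 8067 normalized counts, a log2 fold change of -0.036 (standard error 0.140). The median log2 fold change of the 5 members was 0.0029, beside 0.0086 over all genes tested.

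**Figure D1:**
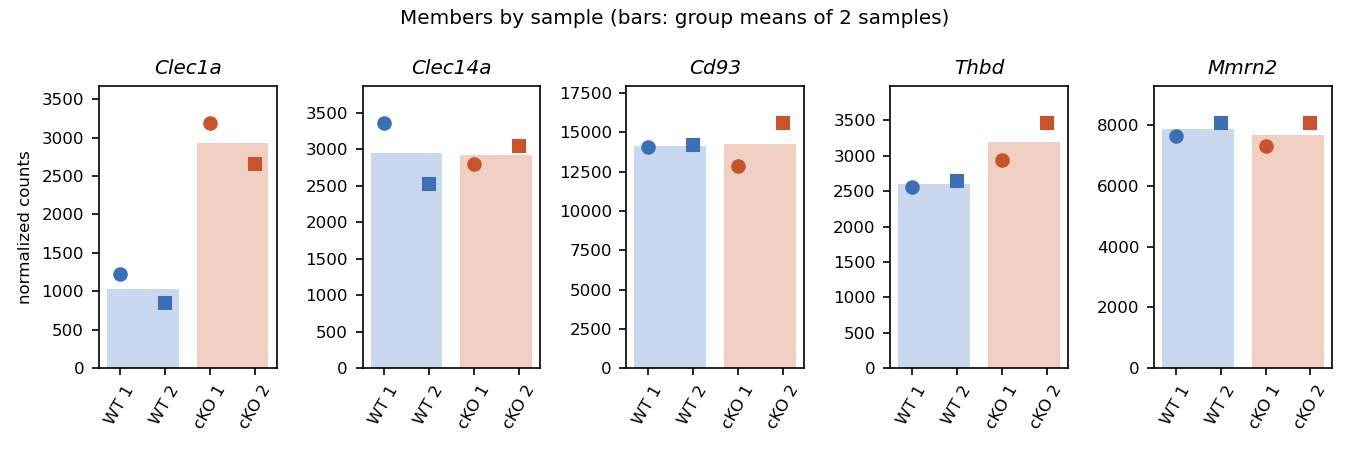
Normalized counts (vertical axes, each from 0) of the 5 members in wild-type samples 1 and 2 (blue) and *Foxq1* cKO samples 1 and 2 (orange), with bars at the group means of 2 samples. *Clec1a* lies at 844 and 1223 in wild-type against at 2659 and 3193 in *Foxq1* cKO samples, while the points of *Clec14a*, *Cd93* and *Mmrn2* overlap.

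Because the sum of the 14 endothelial markers, unlike that of the 8 brain EC markers, did not overlap between the genotypes, the members were also expressed relative to the 14. Centring each sample on the median of the 14 endothelial markers raised the log2 fold changes to 1.72 for *Clec1a*, 0.50 for *Thbd*, 0.21 for *Clec14a*, 0.21 for *Cd93* and 0.17 for *Mmrn2*, and the median of all genes by 0.20. The differences between the members are the same on both scales. The part of endothelial content in the member values was not tested.

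**Figure D2:**
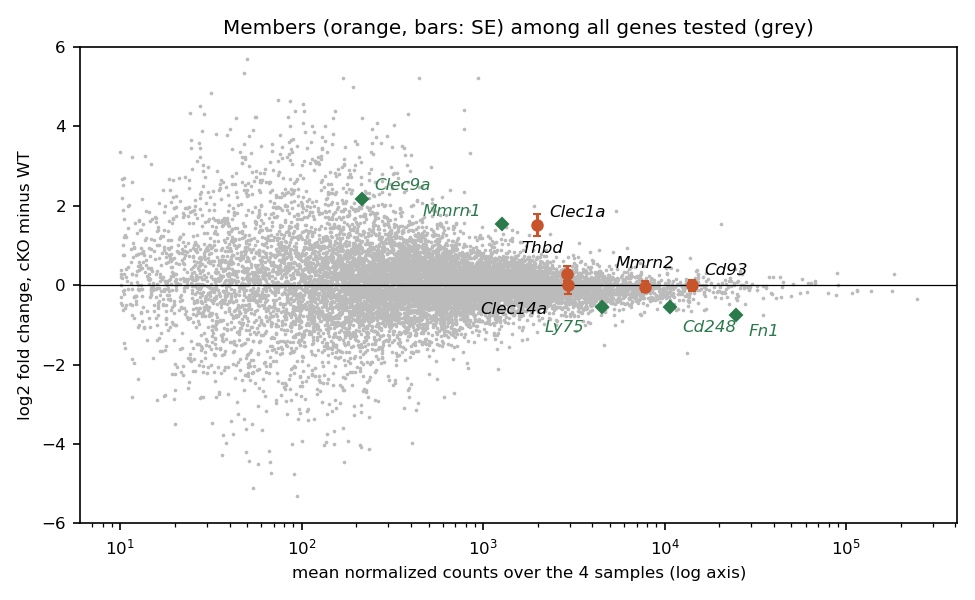
Log2 fold change (*Foxq1* cKO minus wild-type) against mean normalized counts (log axis) for the 12472 genes tested (grey), the 5 members (orange, bars are standard errors) and 5 related genes (green). *Clec1a* lies at 1.52, and *Clec14a*, *Cd93* and *Mmrn2* lie at the zero line.

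Divided by exonic length, the members fell into 3 tiers in wild-type cells. This length joins every annotated exon of a gene. *Clec1a* has 4 annotated transcripts against 1 of *Clec14a*, so the level of *Clec1a* per kb depends on which transcripts were expressed. *Cd93* led with 2108 and 2128 normalized counts per kb of exon, and *Mmrn2* followed with 1927 and 2034. These neighbours were 1.07-fold apart without overlap in wild-type samples and overlapped in *Foxq1* cKO samples. *Thbd* (688 and 710.2 per kb) and *Clec14a* (736 and 553 per kb) formed the middle tier, and their wild-type samples overlapped. *Clec1a* came last with 236 and 163 per kb, 3.23-fold below *Clec14a* by the means. By level per kb, 67.2% of the genes with a length lay below *Clec1a* in wild-type and 97.3% lay below *Cd93*.

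In *Foxq1* cKO cells the lower end of this order differed. *Clec1a* had 616 and 513 normalized counts per kb and overlapped with *Clec14a*, which had 614 and 666. *Thbd*, at 788 and 931 per kb, lay above *Clec14a* in both *Foxq1* cKO samples. *Cd93* stayed at the top with 1927 and 2337 per kb, beside *Mmrn2* with 1838 and 2029.96. Within each sample, the per-kb level of *Clec1a* was 32.1% and 29.5% of that of *Clec14a* in wild-type, against 100.4% and 77.1% in *Foxq1* cKO samples. The neighbours *Thbd* and *Cd93* kept a narrow ratio within each genotype: *Thbd* stood at 32.6% and 33.4% of *Cd93* per kb in wild-type, and at 40.9% and 39.8% in *Foxq1* cKO samples.

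**Figure D3:**
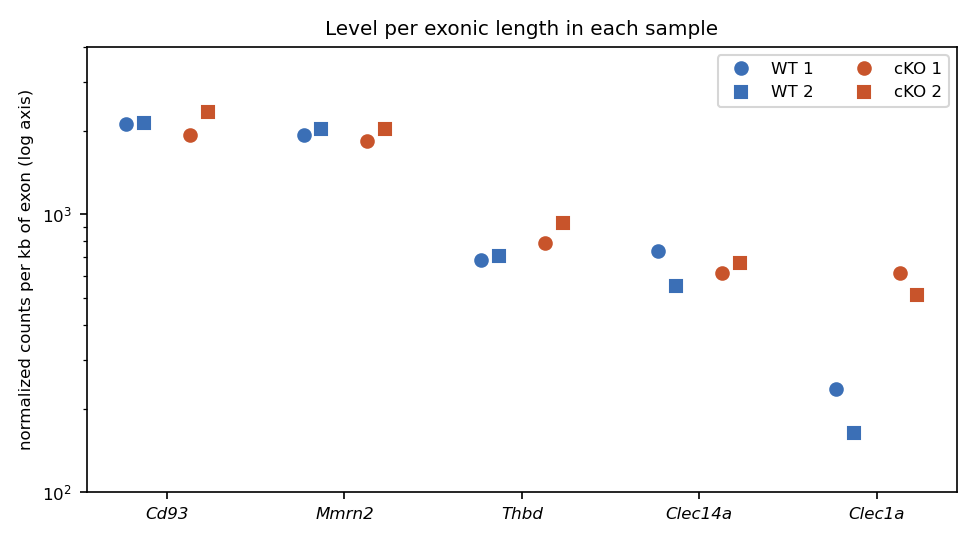
Normalized counts per kb of exon (log axis) of the 5 members in each sample, ordered by the wild-type mean, with wild-type samples in blue and *Foxq1* cKO samples in orange. *Clec1a* lies at 163 and 236 in wild-type against at 513 and 616 in *Foxq1* cKO samples, next to the *Clec14a* points.

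Related genes outside the members were tested with limma across all 12472 genes. At an unadjusted p under 0.05, 5.22% of all genes were called, 2.17% as higher and 3.05% as lower in *Foxq1* cKO samples, and 0 genes (0.0%) passed after Benjamini-Hochberg adjustment, with a smallest adjusted p of 0.857. DESeq2 on the recovered reads called 0.465% of genes at an adjusted p under 0.05, and edgeR 0.0%. The unadjusted limma count was 651 genes, against 1569 without wild-type replicate 2 and 276 without *Foxq1* cKO replicate 1. The lists, like the members, were chosen with earlier results of these data known. Nothing is therefore read from their share of calls, and their p-values are a description. The lists held 40 tested genes that are not members, of which 5 (12.5%) had an unadjusted p under 0.05, 2 higher and 3 lower. Their median log2 fold change was -0.031, and each of the 40 had an adjusted p over 0.05 in limma and edgeR. For 1 gene alone, the smallest two-sided p that exact permutation of 2 against 2 samples allows is 0.333.

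The remaining group 14 gene was lower and the remaining multimerin higher in *Foxq1* cKO samples, both by the unadjusted p. *Cd248*, the fourth group 14 gene and a marker of pericytes and fibroblasts, had 12369.7 and 12802 normalized counts in wild-type against 7195 and 10248 in *Foxq1* cKO samples. Its log2 fold change was -0.55 (standard error 0.191, unadjusted p = 0.0276 and adjusted p = 0.857 in limma). The unadjusted p lay above 0.05 without wild-type replicate 1 (0.0522), without wild-type replicate 2 (0.0721) and without *Foxq1* cKO replicate 1 (0.140), where the log2 fold change was -0.30. *Pdgfrb*, the pericyte receptor, was level beside it, so *Cd248* stood at 114% and 124% of *Pdgfrb* in normalized counts in wild-type against at 68.1% and 100.9% in *Foxq1* cKO samples. The 4 tabulated of 6 fibroblast markers summed to 8790 and 9941 in wild-type against 9434 and 5736 in *Foxq1* cKO samples, with *Lum* and *Dcn* not listed. The part of pericyte and fibroblast content in the *Cd248* difference was not tested.

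Among EMILIN and multimerin genes, which encode matrix glycoproteins, 3 of 5 were tabulated, *Mmrn2* included. *Mmrn1*, multimerin 1 of platelets and some ECs, had 769 and 533 normalized counts in wild-type against 2227 and 1538 in *Foxq1* cKO samples, without overlap. The mean ratio was 2.89 and the log2 fold change 1.53 (standard error 0.340, unadjusted p = 0.00398 and adjusted p = 0.857 in limma). On the recovered reads the adjusted p was 0.0121 in DESeq2 and 0.937 in edgeR. The summed platelet and megakaryocyte markers ranged from 495 to 1427 in wild-type and were 847 and 889 in *Foxq1* cKO samples, with 5 of 7 tabulated and *Gp1bb* and *Gp6* not listed. *Emilin1* overlapped between the genotypes, with a log2 fold change of 0.12 (standard error 0.310). In relation to its paralog, *Mmrn1* stood at 6.80% and 4.47% of *Mmrn2* per kb in wild-type against at 20.7% and 12.9% in *Foxq1* cKO samples.

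Of the 17 tested ligands, adaptors and signalling partners of group 14 proteins besides *Mmrn2*, 1 was lower at an unadjusted p under 0.05, none was higher and 16 did not pass in limma. That gene was *Fn1*, fibronectin, whose fibrils are organised downstream of CD93. It had 32362 and 29788 normalized counts in wild-type against 15488 and 21793 in *Foxq1* cKO samples, so both *Foxq1* cKO samples lay below both wild-type samples. Its log2 fold change was -0.76 (standard error 0.177, unadjusted p = 0.00503 and adjusted p = 0.857 in limma), and the adjusted p was 0.0413 in DESeq2 and 0.937 in edgeR. The fibronectin receptor subunit *Itgb1* differed by -0.0026 on the log2 scale (standard error 0.130), and *Kdr*, the main VEGF receptor, one of -0.018 (standard error 0.0997). *Igfbp7*, a matrix ligand of CD93, stood at -0.18 (standard error 0.210). The median of the 17 genes was -0.018.

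Of the protein C pathway, 7 of 16 genes were tabulated and *Proc* itself was not listed. None of the 6 genes other than *Thbd* had an unadjusted p under 0.05 in limma. The smallest p-values belonged to *Tfpi*, the tissue factor pathway inhibitor (log2 fold change -0.39, standard error 0.183, unadjusted p = 0.0769 in limma), and to *F2r*, a thrombin receptor (-0.46, standard error 0.222, unadjusted p = 0.0841 in limma). Without wild-type replicate 2 the unadjusted p of *Tfpi* was 0.0426, and without *Foxq1* cKO replicate 1 that of *F2r* was 0.0264. *Procr*, the endothelial protein C receptor that works beside thrombomodulin, had 1130.0 and 1181 normalized counts in wild-type against 893 and 1117 in *Foxq1* cKO samples (log2 fold change -0.21, standard error 0.281). *Klf2* and *Klf4*, transcription factors known to induce *Thbd*, had log2 fold changes of -0.17 (standard error 0.278) and -0.15 (standard error 0.364), both negative, beside 0.29 for *Thbd*. The *Klf4* value was 0.15 without wild-type replicate 1 and 0.14 without *Foxq1* cKO replicate 2.

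Of 72 annotated genes matching a symbol rule for C-type lectins, 14 were tabulated, and 12 of these were not members. The rule took genes by name, *Clec16a* among them, and did not check for a lectin-like domain. In limma at an unadjusted p under 0.05, 1 of the 12 was higher and 1 lower in *Foxq1* cKO samples. *Ly75*, the endocytic receptor DEC-205, had 5292 and 5465 normalized counts in wild-type against 3594 and 3805 in *Foxq1* cKO samples. Its log2 fold change was -0.54 (standard error 0.158, unadjusted p = 0.0139 and adjusted p = 0.857 in limma). Leaving out wild-type replicate 2, *Foxq1* cKO replicate 1 or *Foxq1* cKO replicate 2 took the unadjusted p to 0.05005, 0.0762 and 0.0502. The summed microglia and macrophage markers, all 10 tabulated, were also lower in *Foxq1* cKO samples, at 7762 and 8080 against 9598 and 12776. Singly, 3 of the 10 (*Csf1r*, *Cx3cr1* and *C1qb*) lay below, 1 (*C1qc*) lay above and 6 overlapped. Over all genes tested, 36.0% did not overlap. The median log2 fold change of the 10 was 0.013. *Csf1r* had 3365 and 2579 normalized counts in wild-type against 1732 and 1587 in *Foxq1* cKO samples. Its log2 fold change was -0.83 (standard error 0.229, unadjusted p = 0.0109 and adjusted p = 0.857 in limma), and the other 9 did not pass. *Mrc1* had 1217 normalized counts in wild-type 2 against 21.9 in wild-type 1. The part of microglia and macrophage content in the *Ly75* difference was not tested.

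The higher one was *Clec9a*, a dendritic cell receptor gene that adjoins *Clec1a*. It lies on the plus strand from 129408862 to 129424763, so that the genes end tail to tail with 8 bp between them. *Clec9a* had 137 and 40.9 normalized counts in wild-type against 339 and 346 in *Foxq1* cKO samples, resting on 162, 41, 311 and 340 reads. The log2 fold change was 2.18 (standard error 0.788, unadjusted p = 0.0323 and adjusted p = 0.857 in limma). It was 1.32 without wild-type replicate 2 (unadjusted p = 0.0715), and the unadjusted p was 0.122 and 0.126 without *Foxq1* cKO replicate 1 or 2. In every sample *Clec9a* had fewer normalized counts than *Clec1a*, at 11.2% and 4.84% of it in wild-type against 10.6% and 13.0% in *Foxq1* cKO samples. Whether counting used the strand is not given in the sources used here, so reads running past the end of *Clec1a* could be counted on *Clec9a*, and this was not tested. *Clec1b*, the next lectin gene, which overlaps the *Clec9a* gene, had overlapping groups and a log2 fold change of 0.070 (standard error 0.560).

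The other tabulated genes next to the members did not pass. Of 8 such neighbours, *Clec9a* was the one with an unadjusted p under 0.05 in limma. The smallest p of the other 7 was 0.0917, for *Mipol1* (log2 fold change -1.37, standard error 0.684). *Mipol1* lies 767520 bp from *Clec14a*, with 3 untabulated coding genes between them. *Sncg*, 675 bp before *Mmrn2*, had 136 and 151 normalized counts in wild-type against 66.4 and 36.6 in *Foxq1* cKO samples (log2 fold change -1.51, standard error 0.786), while *Mmrn2* was level.

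**Figure D4:**
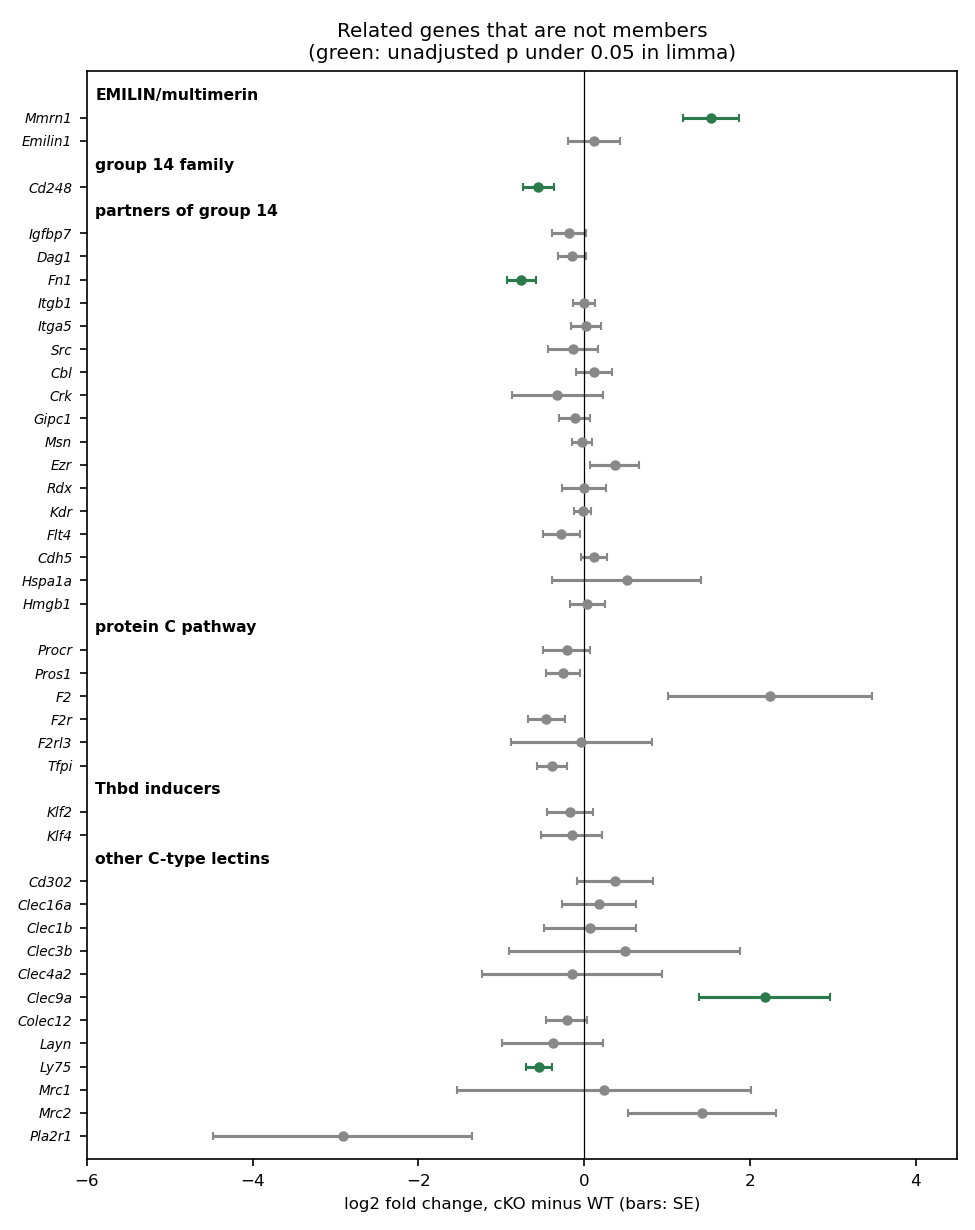
Log2 fold change (*Foxq1* cKO minus wild-type, bars are standard errors) of the 40 tested related genes that are not members, by list, with green for the 5 with an unadjusted p under 0.05 in limma. *Mmrn1* at 1.53 and *Clec9a* at 2.18 lie right of zero, and *Cd248*, *Fn1* and *Ly75* lie between -0.54 and -0.76.

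The genes with the sample pattern most like each member were found by Euclidean distance over the 4 samples between log2 values centred on the mean of each gene, among 11402 other genes with a mean of at least 50. For *Clec1a* these were *Cep83* (distance 0.0857), *Mmrn1* (0.191) and *Per3* (0.214). *Cep83*, a centriole gene, had 149.99 and 109.7 normalized counts in wild-type against 409 and 322 in *Foxq1* cKO samples. *Per3*, a circadian clock gene, had 126 and 70.8 against 286 and 246. Among the members, the pattern of *Cd93* was close to that of *Mmrn2* (distance 0.113, with 84 genes closer), and *Clec1a* was far from every other member, *Thbd* being the nearest at 1.34 with 1822 genes closer. *Clec9a* lay 1.08 from *Clec1a*, with 716 genes closer. The gene nearest to each other member was *Map1lc3b* for *Clec14a* (0.0425), *Osmr* for *Cd93* (0.0026), *Ndufa3* for *Thbd* (0.0261) and *Def6* for *Mmrn2* (0.0177). With 4 samples, many genes share a pattern of this kind, and likeness says nothing about shared control.

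**Figure D5:**
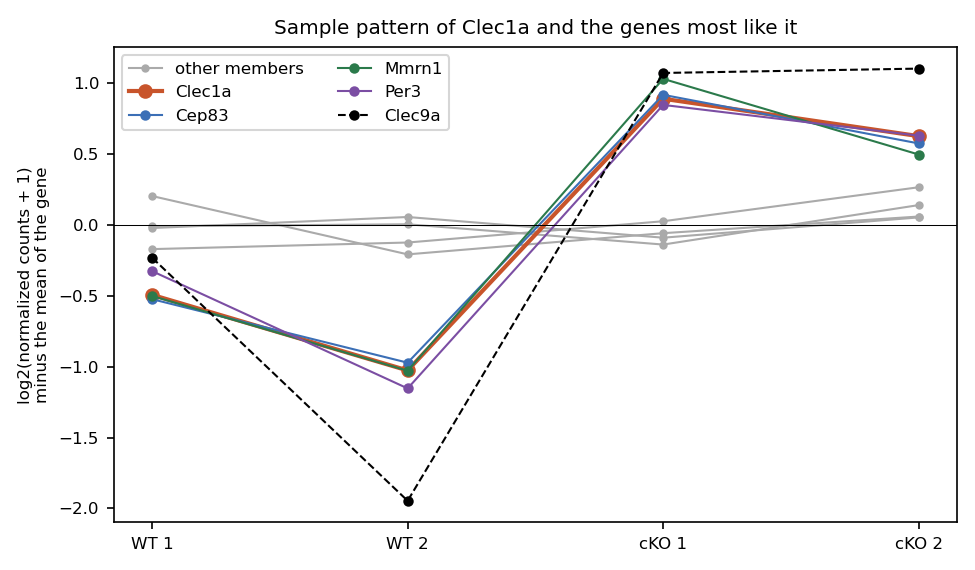
Log2(normalized counts + 1) minus the mean of each gene (vertical axis) in the 4 samples for *Clec1a*, the 3 genes with the most similar pattern, the adjoining *Clec9a* (dashed) and the other 4 members (grey). *Cep83*, *Mmrn1* and *Per3* follow *Clec1a* at distances of 0.0857 to 0.214, and the grey lines stay near zero.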

How the data were processed

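The authors deposited 1 table of a normalized signal per gene for 2 wild-type and 2 *Foxq1* cKO samples: reads per gene divided by a size factor per sample. The submitters' processing notes list Bowtie2 2.2.3, TopHat2 2.0.12, HTSeq 0.6.0 and mm9. The 1207361 lines repeat each gene with identical values and were reduced to 12693 symbols. Every value (100% in each sample, within 0.01 of a whole number) equalled a whole number of reads times 1 step, which gave the reads back. Genes with 0 reads in any sample are not in the table: the fewest reads were 1 in a sample and 21 over the 4 samples. Exonic lengths came from GENCODE M21 (GRCm38), which held 12685 of 12701 identifiers.

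In R 4.3.3, limma 3.58.1 (trend) was the main test; log2(value + 1) was used for the 12472 genes whose mean reached 10, adjusted by Benjamini-Hochberg. The added 1 makes folds of low genes smaller: the log2 fold change of *Clec9a* was 2.18, against 2.19 with 0.1 added. Folds of low or uneven genes can still differ from those of DESeq2 in either direction, and DESeq2 gave 1.95 for *Clec9a*. DESeq2 1.42.0 and edgeR 4.0.16 served as alternatives, fitted to the recovered reads. Scripts were tested on simulated data. Amplified reads without molecular identifiers are not independent molecules.

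The 5 members and the lists were chosen with earlier results of these data known. Named genes were *Foxq1*, the members, up to 4 genes per list with an unadjusted p under 0.05 (otherwise the 2 smallest p), the 3 nearest patterns per member, of which the first is named for members other than *Clec1a*, and the adjoining tabulated genes. *Emilin1*, *Itgb1*, *Kdr*, *Igfbp7*, *Procr*, *Clec1b* and *Pdgfrb* were chosen for their role after their values were seen.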

Additional observations from a re-analysis of the deposited data

How the results depend on the processing

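With 2 samples a group, a single sample can decide a call. *Clec1a* stayed between 1.501 and 1.72 on the log2 scale over 8 alternatives and between 1.25 and 1.79 with each sample left out. With a sample left out, *Clec14a* ranged from -0.20 to 0.21, *Cd93* from -0.14 to 0.14, *Thbd* from 0.17 to 0.41 and *Mmrn2* from -0.11 to 0.036. Centring on endothelial markers gave 0.21 for *Cd93*, 0.50 for *Thbd* and 0.17 for *Mmrn2*, and quantile normalization gave 0.052 for *Mmrn2*, whose sign is thus open.

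DESeq2 on the recovered reads called 59 genes at an adjusted p under 0.05, against 0 in limma and in each other alternative. With each sample left out, 276 to 1569 genes had an unadjusted p under 0.05, and 0 an adjusted one. Without a trend in limma, 2 of the 40 related genes had an unadjusted p under 0.05, against 5: 0 in the group 14 family, 0 among its partners and 1 C-type lectin. With a sample left out, 3 to 7 of the 40 did. Quantile normalization also left 0 in the family. With a sample left out these counts ranged from 0 to 1 for the family, 1 to 2 for partners, 0 to 2 for the protein C pathway and 0 to 3 for C-type lectins. *Klf4* ranged from -0.45 to 0.15 on the log2 scale. *Mmrn1* had an unadjusted p under 0.05 in 10 of 10 alternatives and with each sample left out. The causes were not tested.

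Differences between replicates 1 and 2 correlated at 0.032 across genes between the genotypes. A shared origin that touched few genes would also leave this value low, so it cannot show whether samples of equal number were paired. With the replicate number as a block, 693 genes had an unadjusted p under 0.05, against 651.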
